A study of Homo sapiens with 9 samples.

Results

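*BCL2A1*, *BIRC3*, *BCL2*, *BCL2L1*, *BCL2L11* and *MCL1* are genes of cell survival, and the open chromatin around them was read from 4 deposited lists of FAIRE-seq peaks of Jurkat (clone E6-1), a leukaemic T cell line of human origin. FAIRE, the formaldehyde-assisted isolation of regulatory elements, enriches DNA that is free of nucleosomes. Peaks of the 4 lists that overlapped or touched were merged, and every merged region within the gene body or within 50 kb of the transcription start site (TSS) of one of the 6 genes was taken, with the TSS set at the 5′ end of the GENCODE gene on GRCh37. This gave 46 regions out of 40703, of which 20 lay in the gene bodies. The labels name the lists NS (non-stimulated cells with DMSO, the vehicle), SW (stimulus withdrawal, which is DMSO, PMA and ionomycin for 4 h, then a wash and 1 day of culture), NS rottlerin and SW rottlerin (the same states after 1 h with 15 μM of the kinase inhibitor rottlerin). The study's methods give a shorter stimulation than the labels do. Each list is 1 library of this 1 line, so differences between lists have no replicate check and no p-value is given.

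Which cells the lists describe is in doubt. The study's methods state that peaks were called on the samples with DMSO and then merged, whereas the labels assign rottlerin to 2 of the lists. All peaks of the lists merged into 40731 regions before 28 outside the autosomes, X and Y were removed. That total is the one the study's methods state for the DMSO samples. Those were non-stimulated, stimulated, withdrawn and re-stimulated cells, so the lists labelled rottlerin may hold stimulated or re-stimulated cells. Which is right cannot be told from the lists. The lists are therefore named by their labels only, and no value below is read as an effect of withdrawal or of rottlerin. The NS list rests on its label. It was the smallest, with 18977 peaks, against 20132 in the SW, 23835 in the NS rottlerin and 30409 in the SW rottlerin list. The lists hold no read depth, and "no peak" means not called in that library. The fold enrichment over total input had medians of 4.03 to 4.08 in the 4 lists. The score of a peak, 10 times its −log10 q truncated to a whole number, had medians of 53 to 57.

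The BCL2 family decides whether mitochondria release cytochrome c during apoptosis. *BCL2*, *BCL2L1* (BCL-XL), *MCL1* and *BCL2A1* (A1/BFL1) are guardians that hold the effectors *BAX* and *BAK1* in check, and BH3-only proteins such as *BCL2L11* (BIM) bind and neutralise the guardians. *BIRC3* (cIAP2) is a ubiquitin ligase of TNF receptor complexes, and *BIRC3* and *BCL2A1* are known NF-kB target genes in lymphocytes.

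The sequences below carry the comparison with the NS list, since each lies in a region with a peak in all of the other 3 lists and in none of the NS list. The first pair shows the bases just before the TSS of *BCL2A1* and of *BIRC3*. The other 4 show, for regions away from a gene start, the bases that the peaks of these 3 lists share, without annotated UTR. All are from GRCh37, written 5′ to 3′ in the direction of the gene. Capitals mark the letters of AP1 (TGANTCA), of the NF-kB consensus, of ETS (CCGGAAG or GAGGAAG) and of NFAT (GGAAA), each on either strand.
BCL2A1, bases before the TSS (chr15:80263539-80263838, minus strand): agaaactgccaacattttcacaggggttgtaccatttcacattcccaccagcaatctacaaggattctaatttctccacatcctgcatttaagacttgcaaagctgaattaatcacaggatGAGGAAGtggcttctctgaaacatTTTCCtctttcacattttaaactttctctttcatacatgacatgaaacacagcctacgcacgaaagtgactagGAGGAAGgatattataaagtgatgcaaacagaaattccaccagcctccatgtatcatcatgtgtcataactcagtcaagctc
BIRC3, bases before the TSS (chr11:102187915-102188214, plus strand): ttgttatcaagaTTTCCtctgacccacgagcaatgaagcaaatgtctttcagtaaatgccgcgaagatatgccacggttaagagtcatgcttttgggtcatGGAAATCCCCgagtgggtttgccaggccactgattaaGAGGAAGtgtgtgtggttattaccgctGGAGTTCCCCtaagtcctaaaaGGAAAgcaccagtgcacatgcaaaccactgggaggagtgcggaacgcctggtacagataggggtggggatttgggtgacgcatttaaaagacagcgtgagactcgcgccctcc
BCL2, intron (chr18:60829103-60829302, minus strand): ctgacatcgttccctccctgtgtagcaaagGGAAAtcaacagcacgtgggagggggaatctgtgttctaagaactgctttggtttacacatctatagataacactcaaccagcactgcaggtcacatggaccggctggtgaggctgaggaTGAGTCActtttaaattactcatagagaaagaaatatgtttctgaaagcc
BCL2L1, intron (chr20:30279568-30279812, minus strand): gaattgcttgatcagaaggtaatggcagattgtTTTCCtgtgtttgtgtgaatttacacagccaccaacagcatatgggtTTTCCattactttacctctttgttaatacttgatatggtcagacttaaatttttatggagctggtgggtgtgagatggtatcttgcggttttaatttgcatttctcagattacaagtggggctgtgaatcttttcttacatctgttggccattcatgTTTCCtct
MCL1, upstream region in an intron of ENSA, distal (chr1:150586135-150586294, minus strand): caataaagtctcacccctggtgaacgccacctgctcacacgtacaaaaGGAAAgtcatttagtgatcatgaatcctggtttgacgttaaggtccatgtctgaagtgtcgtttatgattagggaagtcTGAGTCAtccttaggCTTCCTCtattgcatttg
MCL1, upstream region in an intron of ENSA, proximal (chr1:150584011-150584234, minus strand): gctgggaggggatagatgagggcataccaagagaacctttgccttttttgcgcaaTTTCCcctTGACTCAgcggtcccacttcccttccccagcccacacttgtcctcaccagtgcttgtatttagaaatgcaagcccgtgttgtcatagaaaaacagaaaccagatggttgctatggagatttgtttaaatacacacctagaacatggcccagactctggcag

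The *BIRC3* stretch held 2 matches to the NF-kB consensus, which began at -199 and -135 bp from the TSS, with a GAGGAAG of the ETS letters between them at -162 bp. NFAT letters can lie inside an NF-kB match, as those at -199 bp do. The *BCL2A1* stretch held GAGGAAG at -179 and -82 bp, 1 NFAT match, and no match to AP1 or NF-kB. In the distal regions, the *BCL2* intron and both *MCL1* regions held 1 AP1 match each within the shared bases, whereas the *BCL2L1* intron held 3 NFAT matches alone. Matches of letters are a description and not evidence of binding.

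At the *BIRC3* promoter (chr11:102187857-102188328) no NS peak was called, and the nearest NS peak lay 5091 bp away. The fold enrichment was 4.14 in the SW list, 3.68 in the NS rottlerin list and 5.24 in the SW rottlerin list. The peaks spanned 411, 283 and 472 bp and each covered the TSS and both NF-kB matches. Their scores of 93, 78 and 157 were above the median score of each list, while the fold enrichments ranked at percentiles 54.7, 33.0 and 82.4 of their lists. In fold enrichment the *BIRC3* start was thus near the middle of the SW list, below it in the NS rottlerin list and well above it in the SW rottlerin list.

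Of the 10 *BIRC3* regions, 5 were called in 1 list and 2 in 2 lists, where 38.8% and 20.4% of all merged regions were. Upstream, a region 48.7 kb away (chr11:102139355-102139728) had peaks in all 4 lists, with 5.07, 3.45, 4.02 and 4.27 in the NS, SW, NS rottlerin and SW rottlerin lists. Regions 44.7 kb (chr11:102143391-102143580) and 23.5 kb upstream (chr11:102164410-102164997) lacked an NS peak. The former had 4.13 in the SW list, and the latter 3.6 in the SW and 4.32 in the SW rottlerin list. A region 10.5 kb upstream (chr11:102177553-102177819) had 3.21 in the NS and 3.96 in the NS rottlerin list. Beyond the gene, weak peaks were called at 24.5 kb (chr11:102212571-102212771, 2.81, NS rottlerin list) and at 43.1 kb (chr11:102231126-102231498, 2.91, SW rottlerin list). The start was thus the *BIRC3* region that the 3 lists other than NS shared without it.

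At the *BCL2A1* promoter (chr15:80263463-80263948) the NS list again had no peak. The fold enrichment was 3.89, 3.85 and 4.51 in the SW, NS rottlerin and SW rottlerin lists, with scores of 63, 60 and 89. An NS peak lay 1927 bp further upstream, in a region 2.46 kb before the TSS (chr15:80265858-80266148), with a fold enrichment of 3.89 in the NS and 4.17 in the NS rottlerin library. The NS rottlerin list therefore had peaks both at the start and at this upstream region, the NS list at the upstream region and not at the start, and the SW and SW rottlerin lists at the start and not upstream. Further out, a region 39.8 kb upstream (chr15:80303232-80303412) had a peak in the SW list alone, at 3.32, and a region 37.8 kb downstream (chr15:80225594-80225881) had 3.43 in the NS rottlerin and 4.74 in the SW rottlerin list.

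The other guardians differed from this pattern. *BCL2L1* had the tallest start region of the 6 genes in each list (chr20:30310289-30311947), with fold enrichments of 4.89, 5.13, 4.94 and 5.29 in the NS, SW, NS rottlerin and SW rottlerin lists. The *MCL1* start (chr1:150552045-150552322) had a peak in all 4 lists as well, at 3.09, 3.25, 3.89 and 3.37. The *BCL2* start (chr18:60986892-60987559) had peaks in the NS list at 4.01, in the NS rottlerin list at 3.75 and in the SW rottlerin list at 4.48, and none in the SW list. The NS peak at *BCL2* (chr18:60987363-60987553) lay just upstream of the annotated TSS, whereas the NS rottlerin peak (chr18:60986892-60987548) covered it. *MCL1* was below the median of each list, and *BCL2L1* above it. Across the 17 peaks at these 5 starts, fold enrichment divided by the median of its list had a median of 0.99 and ranged from 0.76 to 1.31.

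**Figure D1:**
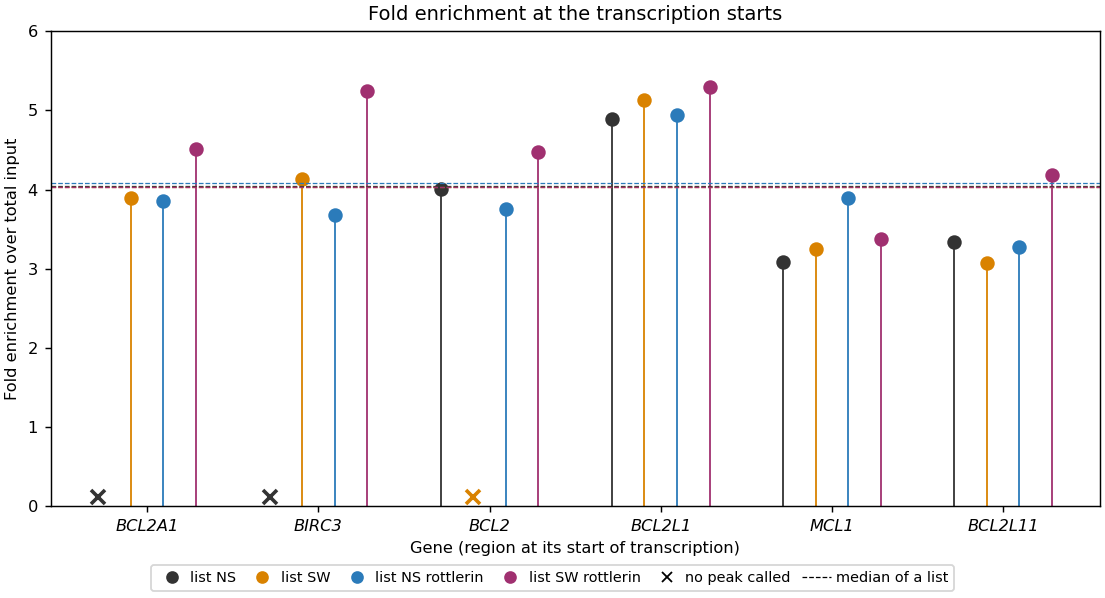
Fold enrichment over total input (y axis) of the region at the start of each gene (x axis) in the 4 lists, 1 point per list, with crosses where no peak was called and dashed lines at the median of each list. BCL2A1 and BIRC3 have no point for the NS list, BCL2 has none for the SW list, and in each list the point of BCL2L1 lies above those of the other genes.

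*BCL2L11*, the BH3-only member, had no region within 1 kb of the 5′ end of its gene record. A region 1363 bp into the gene (chr2:111878318-111878529) covered the annotated start shared by 4 of its protein-coding transcripts, at position 111878491. It had a peak in all 4 lists, with fold enrichments of 3.34, 3.07, 3.27 and 4.18. The region 3.18 kb into the gene (chr2:111880029-111880237), which covers the start of 1 further coding transcript, had peaks in the NS rottlerin list at 3.75 and in the SW rottlerin list at 5.5. A region 49.2 kb downstream, just past the gene (chr2:111926052-111926325), was called in every list, with 3.48, 4.61, 3.98 and 3.77. Regions 3.21 kb upstream (chr2:111873593-111873897) and 43.6 kb into the gene (chr2:111920438-111920670) had a peak in the SW rottlerin list alone, at 3.53 and 3.13.

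The starts also differed in base composition. In the central 300 bp, the *BCL2A1* start had a GC content of 38.7% and 2 CpG, and the *BIRC3* start 52.3% and 14 CpG. *BCL2*, *BCL2L1*, *MCL1* and the start region of *BCL2L11* had 83.0%, 66.3%, 64.7% and 78.0% GC, with 47, 18, 25 and 45 CpG. Over the 7883 merged regions within 1 kb of a protein-coding TSS the medians were 64.7% and 26 CpG. The start regions without an NS peak were thus the pair with the lowest GC content and the fewest CpG of the 6. The window was the centre of each region. That of *BCL2L1* was centred 674 bp into the gene and that of *BCL2A1* at -167 bp from the TSS. Neither held the TSS. With 6 genes this is a description, and over all regions too the median count was 3 CpG without an NS peak and 15 CpG with a peak in every list. Those sets also differ in position, since 26.8% of regions at a coding TSS and 59.9% of the others had no NS peak. The count was not made for gene starts alone.

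Of the 46 regions, 26 had no NS peak (56.5%, 95% Wilson interval 42.2 to 69.8%), against 53.5% of all merged regions. A peak in every list was found for 12 (26.1%, against 26.6%), and a peak in the NS list alone for 4 (8.7%, against 7.83%). These shares differed little from those of all regions. A peak in every list but NS was found for 6 regions (13.0%, against 7.08%). These were the starts of *BCL2A1* and *BIRC3*, 1 region in *BCL2*, 1 in *BCL2L1*, and 2 upstream of *MCL1*, and none at *BCL2L11*. The share of 13.0% rests on 6 regions and is given without an interval. Split by position, the intervals of this share hold that of all regions in each class. From the same FAIRE-seq data, the study had already placed regions near *BCL2A1* and *BIRC3* among those persistently more accessible than in NS cells. By FAIRE followed by PCR on replicate cultures, it also reported both regions more accessible after a longer rest than in NS cells. In T cells of donors it found the *BIRC3* region more accessible in memory than in naive cells, without naming *BCL2A1* among such regions. The 6 genes were chosen with earlier results known, so the higher share is not read as an enrichment.

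Regions at gene starts were called more evenly over the lists in the whole data, so the shares were also read by position. Of the 11 regions within 1 kb of a protein-coding TSS, of the 6 genes or of a neighbour, 4 had no NS peak (36.4%, interval 15.2 to 64.6%), 2 had a peak in every list but NS and 6 had a peak in every list. The shares of all 7883 such regions were 26.8%, 5.37% and 64.0%. Away from coding TSSs, 22 of 35 regions had no NS peak (62.9%, interval 46.3 to 76.8%), against 59.9% of 32820. The intervals hold the shares of all regions in both classes, and they cover counting error alone.

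**Figure D2:**
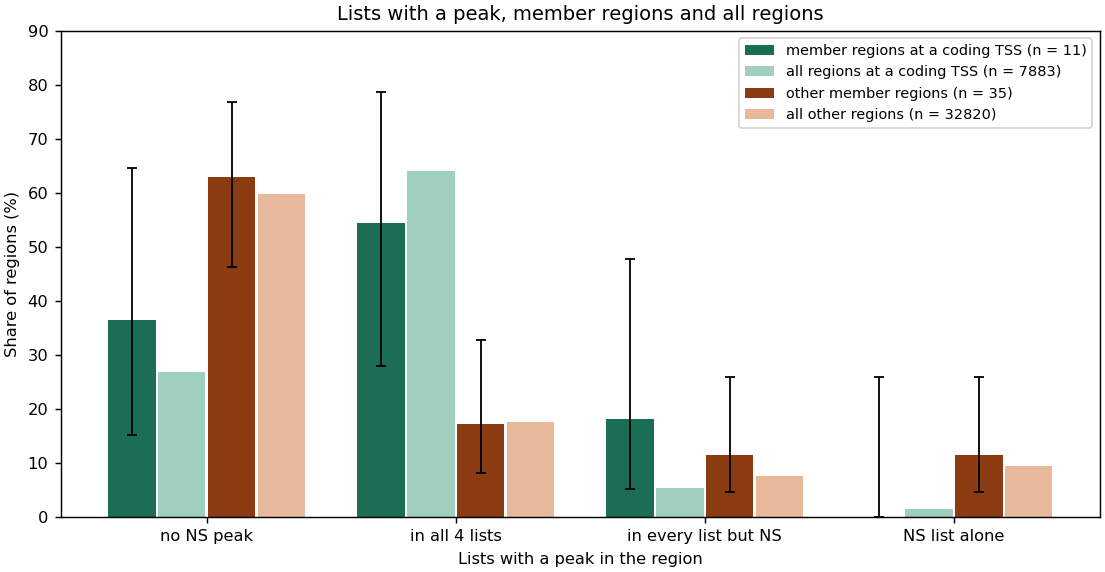
Share of regions in percent (y axis) with no NS peak, with a peak in all 4 lists, in every list but NS, and in the NS list alone (x axis), for the 11 member regions at a coding TSS, the 35 other member regions and all regions of each class. Bars on the member shares are 95% Wilson intervals, and each holds the share of all regions of its class.

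The genes differed in the number of regions. *BIRC3* had 10 regions in its 100 kb, which placed it at percentile 98.8 of protein-coding genes by regions per 100 kb. Its window holds the start of *BIRC2* as well. *BCL2L11* had 8 regions (percentile 95.7), *BCL2L1* 8 (percentile 95.4), *MCL1* 7 (percentile 92.2) and *BCL2A1* 5 (percentile 79.8). *BCL2* had 8 regions, but over 247 kb, since its gene spans 196783 bp, and stood at percentile 66.7. The median protein-coding gene had 2.13 regions per 100 kb.

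**Figure D3:**
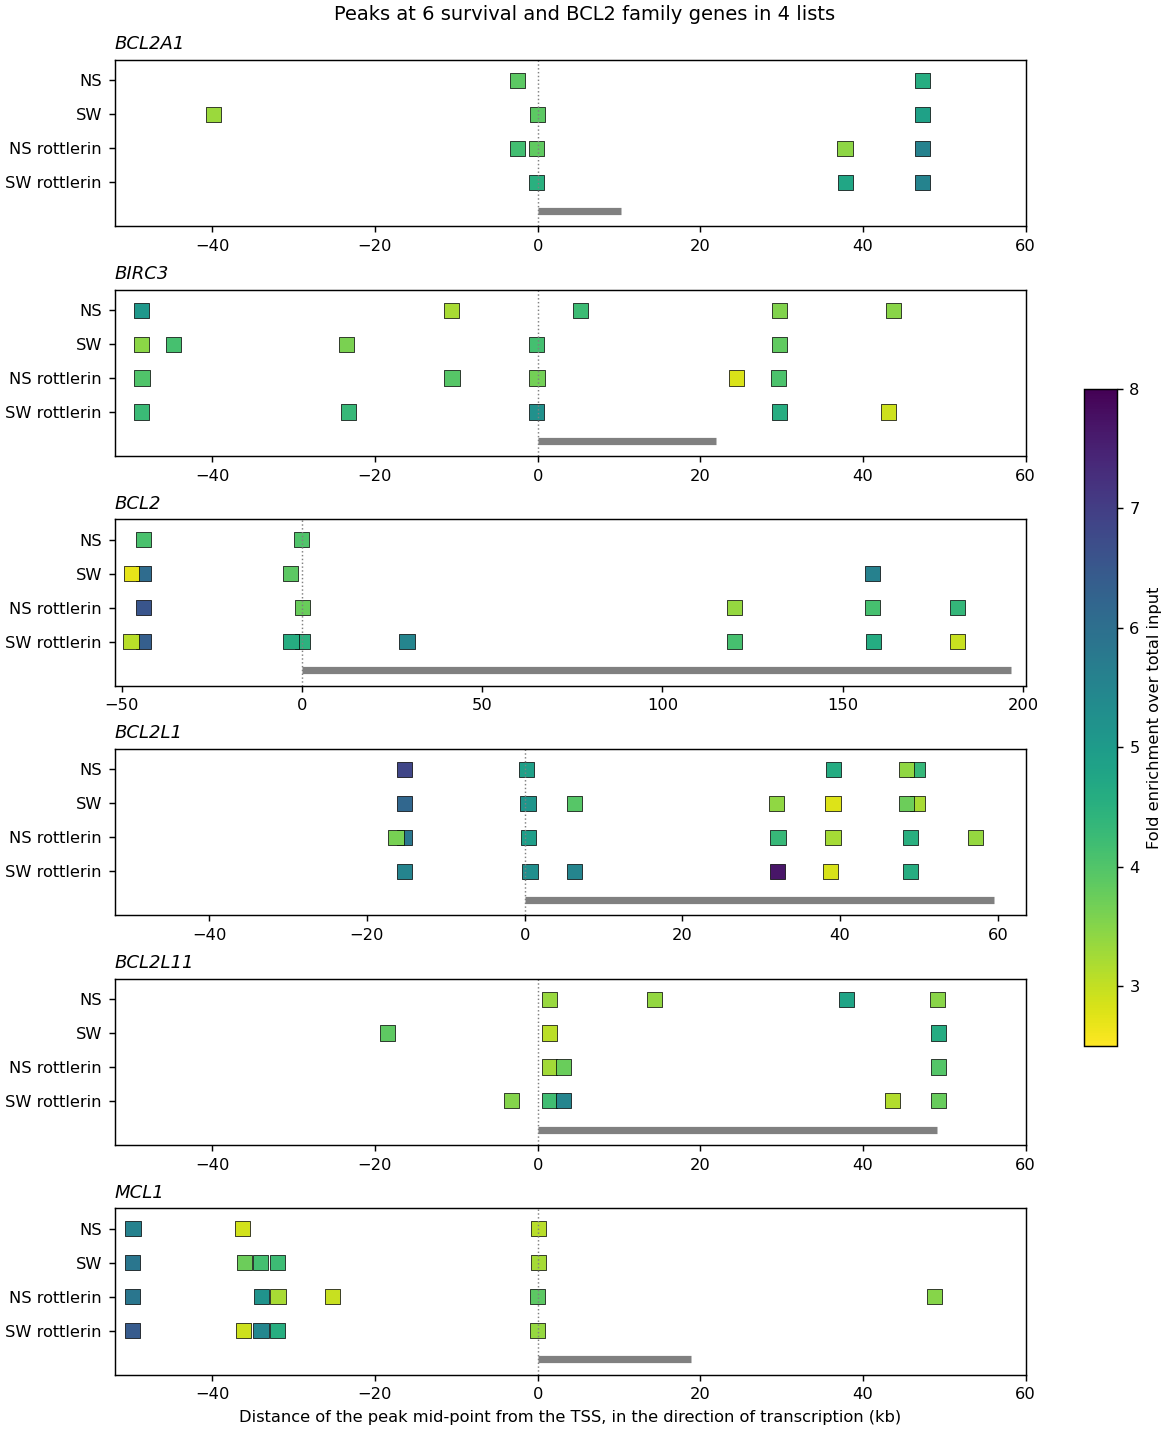
Peaks of the 4 lists (rows in each panel) by distance of their mid-point from the TSS in kb (x axis, in the direction of transcription) at each gene, shaded by fold enrichment over total input, with the gene body as a grey bar. The NS row is empty at the TSS of BCL2A1 and BIRC3, and the BCL2 panel has a wider x axis because of its long gene body.

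Of the 6 *BCL2* regions without an NS peak, 4 lay in the gene body, 29.1 to 182 kb downstream of the TSS. The region 159 kb downstream of the TSS (chr18:60828307-60829311), in an intron and over the annotated start of a shorter coding transcript, had fold enrichments of 5.61, 4.13 and 4.61 in the SW, NS rottlerin and SW rottlerin lists. The nearest NS peak was 61504 bp away, the greatest such distance among the 6 regions in every list but NS. The intron regions 120 kb (chr18:60867236-60867571) and 182 kb (chr18:60805371-60805667) downstream had peaks in the NS rottlerin and SW rottlerin lists. The first had 3.36 and 4.13, and the second 4.36 and 2.96. A region 29.1 kb downstream (chr18:60958011-60958467) had a peak in the SW rottlerin list alone, at 5.5. The NS list thus had no peak in the gene body of *BCL2*, but by a narrow margin. Its peak at the start began at position 60987363, just upstream of the TSS at 60987361. The merged region there is counted in the gene body. Upstream, the region 3.06 kb before the TSS (chr18:60990321-60990519) had 3.88 in the SW and 4.59 in the SW rottlerin list.

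*BCL2L1*, the gene of BCL-XL, had 2 intron regions without an NS peak that were called in more than 1 list. The region 32.0 kb downstream of the TSS (chr20:30279483-30280090) had 3.41 in the SW list, 4.32 in the NS rottlerin list and 7.69 in the SW rottlerin list. The last was the highest fold enrichment among the peaks at the 6 genes, at percentile 98.7 of its list, whereas the SW peak stood at percentile 21.9. The region 6.35 kb downstream (chr20:30305260-30305618) had 3.95 in the SW and 5.5 in the SW rottlerin list. The intron region 49.0 kb downstream (chr20:30261707-30263964), the widest of the 46 regions at 2258 bp, was called in every list, with 4.34, 3.73, 4.53 and 4.58. A region 57.1 kb downstream (chr20:30254567-30254760) had a peak in the NS rottlerin list alone, at 3.38. Of the 46 regions, the one at 6.35 kb and the *BIRC3* start were those with at least 2 matches to the NF-kB consensus in the central 300 bp. Its bases shared by both lists, with the NF-kB and NFAT letters in capitals, are shown for comparison with *BIRC3*.
BCL2L1, intron with NF-kB letters (chr20:30305272-30305567, minus strand): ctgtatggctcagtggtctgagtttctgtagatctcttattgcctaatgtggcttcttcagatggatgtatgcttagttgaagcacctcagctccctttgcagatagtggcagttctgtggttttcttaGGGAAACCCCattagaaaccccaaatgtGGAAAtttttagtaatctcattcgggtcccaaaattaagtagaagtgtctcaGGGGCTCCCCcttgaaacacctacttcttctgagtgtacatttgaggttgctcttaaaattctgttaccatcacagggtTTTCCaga

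**Figure D4:**
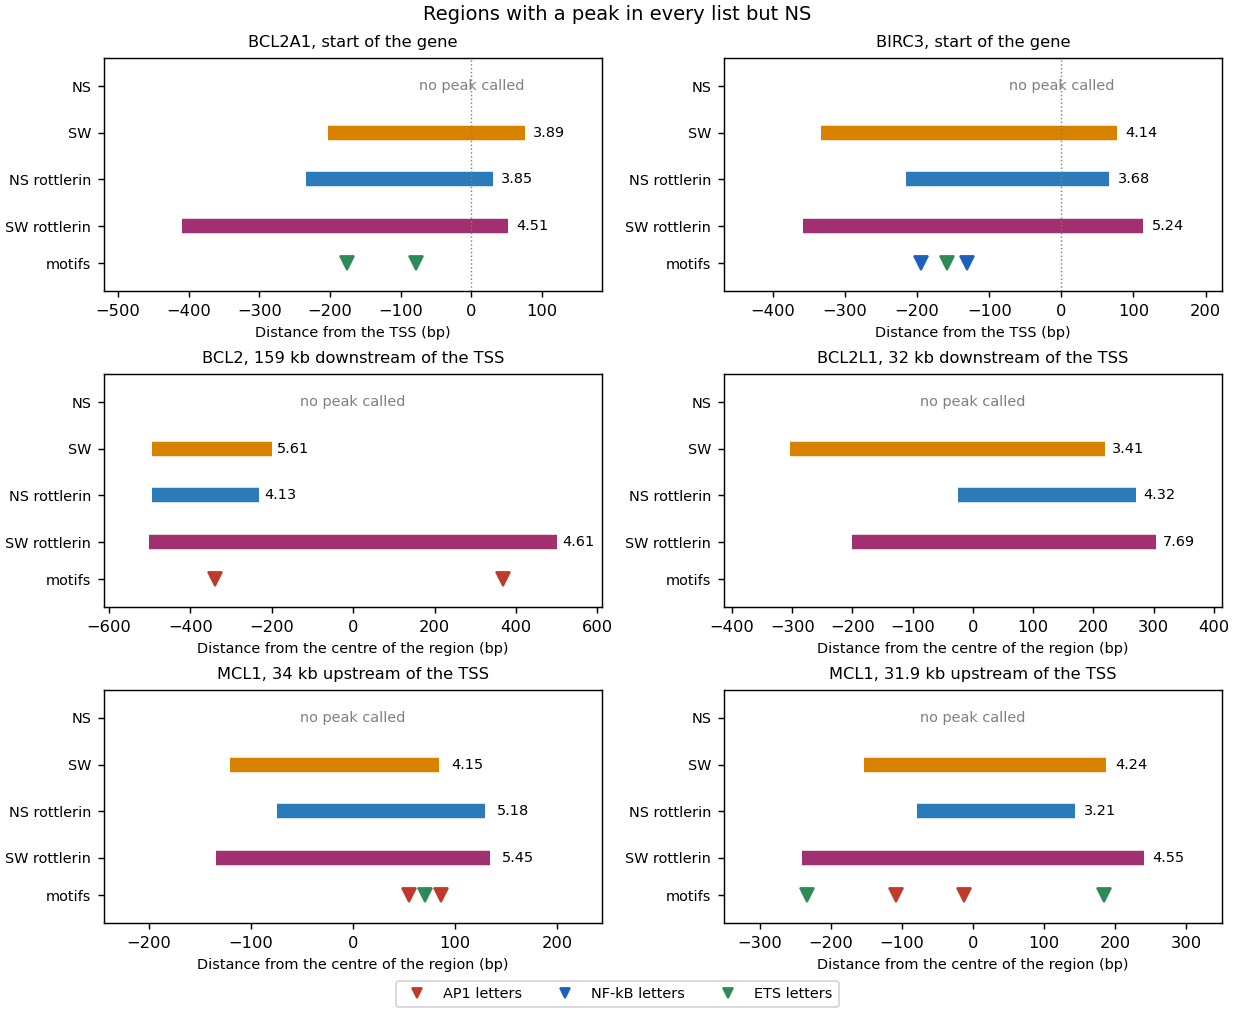
Extent of the peaks of each list (rows) at the 6 regions with a peak in every list but NS, with the fold enrichment beside each bar and triangles at AP1, NF-kB and ETS letters. The x axis is the distance in bp, in the direction of transcription, from the TSS for BCL2A1 and BIRC3 and from the centre of the region for the others. The NF-kB letters appear at BIRC3, and the AP1 letters at BCL2 and upstream of MCL1.

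The *MCL1* gene body held 1 region, at its start. The regions without an NS peak in more than 1 list lay upstream, in introns of *ENSA*, the neighbouring gene of endosulfine alpha. The region 34.0 kb upstream (chr1:150586085-150586353) had 4.15, 5.18 and 5.45 in the SW, NS rottlerin and SW rottlerin lists, and the region 31.9 kb upstream (chr1:150583914-150584396) had 4.24, 3.21 and 4.55. An NS peak with 2.88 was called next to them, 36.1 kb upstream of *MCL1* (chr1:150588166-150588563), where the SW list had 3.73 and the SW rottlerin list 2.91. *ENSA* therefore held 3 neighbouring regions, 1 with an NS peak and 2 without. The regions 25.2 kb upstream, also in *ENSA* (chr1:150577308-150577488), and 48.8 kb downstream (chr1:150503373-150503556) had a peak in the NS rottlerin list alone, at 2.97 and 3.49. Whether any acts on *MCL1* or on *ENSA* cannot be told from peaks. The regions 34.0 and 31.9 kb upstream each held 2 AP1 matches in the central 300 bp, as did a region 18.4 kb upstream of *BCL2L11* (chr2:111858471-111858643), which had a peak in the SW list alone, at 3.87.

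The opposite pattern, an NS peak alone, was confined to *BIRC3* and *BCL2L11* among the 6 genes. At *BIRC3* these were a region 5.29 kb into the gene (chr11:102193420-102193587, 4.23), within a 5′ UTR of an annotated transcript, and a region in an intron of *BIRC2* (chr11:102231862-102232081, 3.48). At *BCL2L11* these were intron regions 14.4 kb (chr2:111891252-111891418, 3.39) and 38.0 kb (chr2:111914835-111915121, 4.79) into the gene. The last had a score of 71, above the median score of the NS list, and the other 3 had scores of 19 to 40. Its bases are shown as the counterpart to those above. In them, 1 NFAT match and no AP1, NF-kB or ETS match was found.
BCL2L11, intron, NS list alone (chr2:111914835-111915121, plus strand): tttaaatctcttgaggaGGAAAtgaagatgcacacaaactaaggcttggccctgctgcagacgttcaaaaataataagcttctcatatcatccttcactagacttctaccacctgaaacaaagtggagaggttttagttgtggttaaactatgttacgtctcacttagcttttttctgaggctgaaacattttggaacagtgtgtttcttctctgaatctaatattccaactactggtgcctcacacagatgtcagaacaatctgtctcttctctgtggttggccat

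Of 6 regions at the starts of neighbouring genes, 4 were called in every list, near the 64.0% of all regions at a coding TSS. The start of *BIRC2* (chr11:102217554-102218076), which encodes cIAP1 and lies next to *BIRC3*, had 3.55, 3.84, 4.06 and 4.58 in the NS, SW, NS rottlerin and SW rottlerin lists. The starts of *TPX2* beside *BCL2L1* (6.84, 6.19, 5.81 and 5.51), of *ENSA* beside *MCL1* (5.57, 5.85, 5.85 and 6.45) and of *ST20-MTHFS* beside *BCL2A1* (4.58, 4.85, 5.59 and 5.55) were the other 3. *BIRC2* and *BIRC3* thus differed in the NS list, with a peak at the former and none at the latter. A region 61 bp from the start of *KDSR* beside *BCL2* had 2.7 in the SW and 3.09 in the SW rottlerin list, and a second region 927 bp from the start of *TPX2* had a peak in the NS rottlerin list alone, at 3.62.

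Where the NS list and another list both had a peak, the fold enrichments were compared. All 3 comparisons share the NS library. In the SW list the ratio to NS had a median of 1.05 over 13 regions, with a range of 0.60 to 1.49. In the NS rottlerin list it was 1.05 over 15 regions (0.70 to 1.61), and in the SW rottlerin list 1.09 over 14 regions (0.61 to 1.56). The medians over all regions with a peak in both lists were 0.98, 1.04 and 1.06, so the members stood close to all regions.

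A region counted as called when the ratio was 1.5 or more in either direction. Higher than NS by this measure were 0 regions in the SW list, 1 in the NS rottlerin list and 1 in the SW rottlerin list, against 1.67%, 3.19% and 4.50% of all regions with a peak in both lists. Lower were 1, 0 and 1, against 2.18%, 1.38% and 1.54%. The higher region was the same in both lists. It lies 44.0 kb upstream of *BCL2*, in an intron of *KDSR* (chr18:61031248-61031559), where the NS peak reached 4.07 and the SW, NS rottlerin and SW rottlerin peaks 6.07, 6.55 and 6.35. The lower region was also the same. It lies in a *BCL2L1* intron, 38.8 kb downstream of the TSS (chr20:30272533-30273371), where the NS peak reached 4.62 and the SW, NS rottlerin and SW rottlerin peaks 2.79, 3.24 and 2.83. The remaining regions were within 1.5 times of NS in each list. With 1 library per list, neither difference can be set against a spread between replicates.

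**Figure D5:**
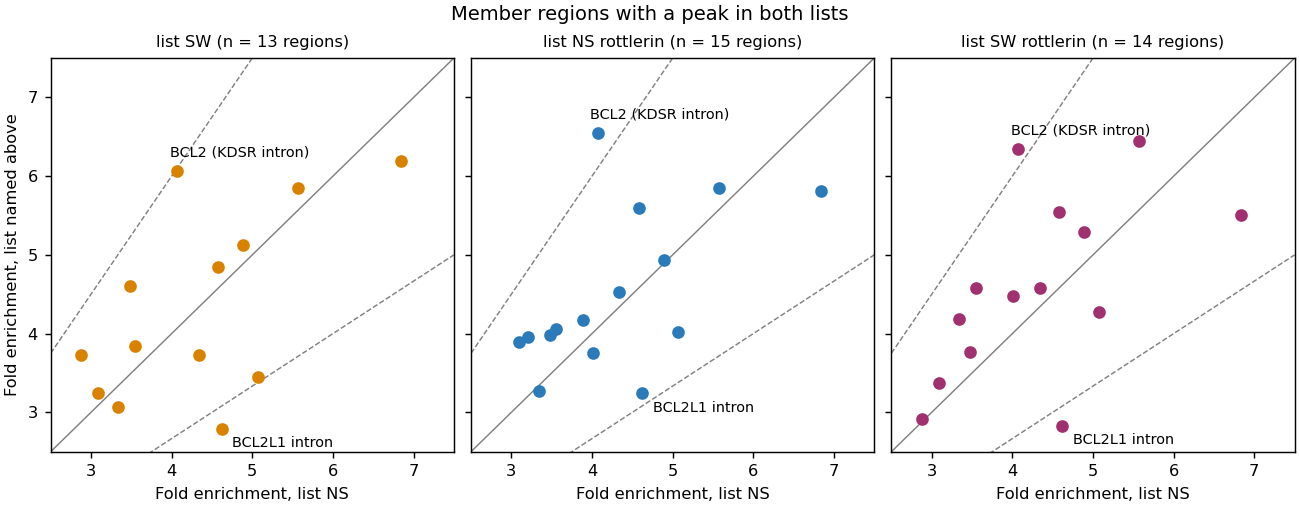
Fold enrichment over total input in the NS list (x axis) against the SW, NS rottlerin and SW rottlerin lists (y axis, 1 panel each) at member regions with a peak in both lists, 1 point per region. The solid line marks equal values and the dashed lines 1.5 times either way. The region in the KDSR intron lies at or near the upper line, and the BCL2L1 intron region at or near the lower one.

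The letters of transcription factor motifs were about as frequent in the 46 regions as in all regions, for most motifs searched. In the central 300 bp, on both strands, AP1 (TGANTCA) was found in 7 (15.2%, against 17.9% of all regions), NF-kB in 3 (6.52%, against 4.33%), ETS in 11 (23.9%, against 8152 of the 40703), NFAT (GGAAA) in 31 (67.4%, against 71.0%), RUNX (TGTGGT) in 14 (30.4%, against 32.8%), the AGATAA of GATA factors in 7 (15.2%, against 21.0%) and SP/KLF (GGGCGG) in 9 (19.6%, against 22.6%). EGR (GCGTGGGNG) was found in 0, against 1.78%, and CRE (TGACGTCA) in 1, the start of *BIRC2*, against 0.985%. The E-box letters CACCTG were found in 12 (26.1%, against 21.4%) and CAGCTG in 13 (28.3%, against 17.1%). At least 2 NF-kB matches were held by 2 of the 46 regions, against 0.636% of all regions, and at least 2 AP1 matches by 3, against 2.54%. The counts are small, and no test was made.

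The rest of the apoptosis machinery was read from a list of 28 further genes. A region lay within 1 kb of the TSS of 18 of them. Every list had a peak at 12 of the 18, whereas 5 had no NS peak and 2 of those 5 a peak in every list but NS. Over all protein-coding genes, 45.0% had such a region, with all 4 lists at 67.8% of those genes, no NS peak at 23.9% and every list but NS at 5.25%. Among the 6 genes, 5 had such a region, 2 of them without an NS peak.

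The 2 further genes with the pattern of *BCL2A1* and *BIRC3* were *PMAIP1* and *TRAF2*. *PMAIP1* (NOXA), a BH3-only protein that binds *MCL1* and *BCL2A1*, had 4.89, 4.72 and 5.18 in the SW, NS rottlerin and SW rottlerin lists. These are the highest values over the 2 regions within 1 kb of its TSS, so they need not come from 1 region. *TRAF2*, the adaptor that recruits *BIRC2* and *BIRC3* to TNF receptors, had 5.66, 4.89 and 8.4. Unlike those of *BCL2A1* and *BIRC3*, the *TRAF2* region (chr9:139777037-139777340) did not cover the TSS, at position 139776364. The other genes without an NS peak within 1 kb of the TSS were *CFLAR*, *XIAP* and *BIRC5* (survivin). *CFLAR* (c-FLIP, the inhibitor of caspase 8) had 3.41 and 3.14 in the NS rottlerin and SW rottlerin lists. *XIAP* and *BIRC5* each had a peak in the NS rottlerin list alone, at 4.84 and 4.31. The *XIAP* region (chrX:122994435-122994606) did not cover the TSS, at position 122993562. The effector *BAX* had a peak in all 4 lists, with 3.42, 2.82, 2.9 and 3.54, and *BAK1* in all but the NS rottlerin list, with 4.2, 3.79 and 3.95.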

How the data were processed

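FAIRE-seq was measured by the authors in Jurkat cells, with 1 library per sample and a total input library as control. By the labels, 4 of 9 samples have a peak list here, and the other 5 were not analysed. Per the labels' processing notes, the authors used cutadapt, Bowtie2, Picard, MACS2 and HTSeq on hg19 (GRCh37), with versions not given in the sources used here. The deposited lists give for each broad peak a score, the fold enrichment over total input (a ratio), and p- and q-values as −log10. No values were normalised further. Peaks on the autosomes, X and Y that overlapped or touched were merged, and a region took the highest fold enrichment of each list. Genes were from GENCODE release 44 on GRCh37. Percentages over the tested regions, Wilson intervals (95%) and motif searches were computed with Python 3.11.15, pandas 2.3.3, scipy 1.17.1 and pysam 0.24.0, and merging and matching were tested on simulated data. Alternatives covered the window, the TSS, the merging and the peaks kept. The members and gene lists were chosen with earlier results of these data known. All 6 members are named, other genes where a count of the apoptosis list is given (some of its genes are not reported here) or a member region lies within 1 kb of their TSS, and ENSA and KDSR also where a region lies in them.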

Additional observations from a re-analysis of the deposited data

How the results depend on the processing

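No paired analysis was possible because each labelled group has 1 library. With a window of 25 kb the regions fell in number to 29, with 17 without an NS peak and 6 in all 4 lists. With the higher-scoring 50% of each list 28 regions were left, 6 in all 4 lists and 2 in the NS list alone. With a stricter limit on the ratio, beyond both the highest ratio of 1.61 and the lowest of 0.60, 0 regions were called higher than NS and 0 lower. The other 46 of 54 alternative values of the main results stayed within 1.5 times of the reported count, or within the reported interval. The share without an NS peak ranged from 47.4%, against 41.6% of all regions, when each list was reduced to its 18977 highest-scoring peaks, to 64.3%, against 52.1%, with the higher-scoring 50%. The starts of BCL2A1 and BIRC3 kept their 3 lists under every choice of peaks tried. Each choice could only remove peaks, so their lack of an NS peak could not change and was not tested. In the higher-scoring 50% the MCL1 start was left with 2 lists and no NS peak, and the BCL2 start with 2 lists. With the TSS of every coding transcript, BCL2L11 had a start region in 4 lists and so did BCL2, because the region 159 kb downstream, which has a SW peak, then counts as a start. Depth is unknown, so that a missing peak limits each comparison with the NS list.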
